A study of Mus musculus with 8 samples.

Results

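Microglial genes were followed in RNA sequencing of whole mouse retina. They comprise 9 genes fixed by name, Cx3cr1, P2ry12, Tmem119, Csf1r, Aif1, Itgam, Tyrobp, Trem2 and Cd68, out of 26824 genes in the count table. All 9 had enough counts to be tested, among 20167 tested genes. The study set 3 libraries labelled WT (WT 1 to WT 3) against 5 labelled KO (KO 2 to KO 6), the label for mice without Kv8.2, a modulatory potassium channel subunit of photoreceptors encoded by Kcnv2. Every mouse was 1 month old and untreated, and each library held total RNA from the 2 retinas of a single mouse. The strain, the allele and the control breeding are not given in the sources used here. The series text says that 2 KO samples were left out of the authors' own test without naming them, so all 5 were used.

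Microglia are the resident macrophages of the retina. They depend on signalling through the receptor Csf1r, survey the tissue through fractalkine and purine receptors, and take up debris through receptors such as Trem2 with its adaptor Tyrobp. In retinal degeneration, activated microglia are known to lower genes of the surveying state, such as P2ry12, Tmem119 and Cx3cr1, and to raise phagocytic and lysosomal genes. In bulk retina, a change in the number of microglia and a change in RNA per cell cannot be told apart.

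Several libraries stood apart in ways that bear on these genes. KO 4, KO 5 and KO 6 differed little from each other, with a chi-square statistic per degree of freedom of 5.38 to 6.28 over genes, against 38.8 to 100.3 between these 3 and KO 2 or KO 3. Their mitochondrial share of counts was 3.03% to 3.70%, against 5.23% to 7.92% in the other 5 libraries. No WT library was of their kind, so in them the library set and the label cannot be told apart, and results are also given for KO 2 and KO 3 and for KO 4 to KO 6 alone. KO 2 and KO 3 are not a uniform set, with a chi-square per degree of freedom of 96 between them. KO 2 was nearer to KO 4, KO 5 and KO 6, at 38.8 to 54.4. The WT pairs lay at 7.41 to 15.7. KO 3 held 51120 CPM (counts for each 1e+06 counts of a library) summed over 14 lens genes, against 1.82 to 1713 CPM elsewhere. WT 1 held 74.7 CPM summed over 8 keratin, mucin and other epithelial genes, against 0.837 to 9.99 CPM elsewhere. WT 3 held 2132 counts of the Y-linked gene Ddx3y, and the other libraries held 1 to 3. The Kcnv2 transcript was present in every library, at 519 to 551 CPM in WT and 398 to 585 CPM in the libraries labelled KO (log2 fold change -0.24, edgeR adjusted p = 0.275). Against WT it was at -0.04 in KO 2 and KO 3 (edgeR adjusted p = 0.903). In KO 4 to KO 6 it was called lower at -0.38 (edgeR adjusted p = 0.000116). Since the transcript was present throughout, the counts do not check the labels. All 9 microglial genes were detected in every library, and several of them, among them Cx3cr1, Csf1r, Aif1, Itgam, Tyrobp and Cd68, are also expressed by monocytes and other macrophages.

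Promoter sequences are shown for the 4 members in which a binding-site core of PU.1, the lineage factor of macrophages and microglia, was found. The windows cover the 250 bases before the RefSeq gene start on GRCm38.p6, 5′ to 3′ on the gene's strand. Capitals mark GAGGAA or its reverse complement TTCCTC.
Trem2 (chr17:48346151-48346400, plus strand): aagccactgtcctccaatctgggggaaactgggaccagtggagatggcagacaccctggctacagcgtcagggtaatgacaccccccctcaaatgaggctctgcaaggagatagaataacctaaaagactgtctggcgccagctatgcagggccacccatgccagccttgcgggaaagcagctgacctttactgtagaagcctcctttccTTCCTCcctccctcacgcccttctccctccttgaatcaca
Cd68 (chr11:69666171-69666420, minus strand): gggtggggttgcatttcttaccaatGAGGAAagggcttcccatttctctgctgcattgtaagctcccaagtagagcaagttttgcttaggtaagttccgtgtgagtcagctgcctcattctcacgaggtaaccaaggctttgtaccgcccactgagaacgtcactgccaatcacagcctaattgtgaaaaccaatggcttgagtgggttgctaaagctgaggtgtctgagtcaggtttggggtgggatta
Itgam (chr7:128062390-128062639, plus strand): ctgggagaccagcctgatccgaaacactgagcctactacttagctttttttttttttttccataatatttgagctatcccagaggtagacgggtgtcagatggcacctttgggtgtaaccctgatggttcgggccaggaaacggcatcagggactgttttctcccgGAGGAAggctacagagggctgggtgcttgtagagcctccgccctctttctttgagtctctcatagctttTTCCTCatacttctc
Aif1 (chr17:35176053-35176302, minus strand): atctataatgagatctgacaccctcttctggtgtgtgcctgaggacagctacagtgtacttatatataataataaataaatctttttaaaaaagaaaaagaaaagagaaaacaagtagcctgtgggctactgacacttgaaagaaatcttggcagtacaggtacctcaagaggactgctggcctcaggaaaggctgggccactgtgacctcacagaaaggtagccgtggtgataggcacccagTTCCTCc
The core began 40 bases before the start in Trem2, 225 in Cd68, 84 and 15 in Itgam, and 7 in Aif1. It was absent from the windows of Cx3cr1 and P2ry12. Tmem119, Csf1r and Tyrobp were not matched. In all, 4 of 6 members with a window held the core, against 25.9% of the 27025 gene windows searched in the same way. A match in letters is a description and not a binding site. Spi1, the gene for PU.1, averaged 0.671 ± 0.111 CPM over the 3 WT libraries and 0.724 ± 0.250 CPM over the 5 KO libraries (± SD), with a log2 fold change of 0.11 (edgeR adjusted p = 0.890).

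Microglial transcripts were rare. A member had 9 to 306 counts in a library, in libraries of 17759146 to 25188870 counts. The floor of 3 counts lay at 0.130 to 0.164 CPM, and every member was above it in every library. The 9 members together took 31.6, 24.6 and 22.3 unscaled CPM in WT 1 to WT 3. They took 39.0, 30.6, 33.6, 38.9 and 34.1 unscaled CPM in KO 2 to KO 6. WT 2 and WT 3 were the lowest of the 8, and WT 1 lay above KO 3.

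Levels of different genes were compared only per kilobase of annotated transcript. In WT, Tyrobp was highest at 2.49 ± 0.218 CPM per kilobase, followed by Csf1r at 1.60 ± 0.228, Trem2 at 1.36 ± 0.0391, Cx3cr1 at 1.29 ± 0.113 and P2ry12 at 1.14 ± 0.232 (SD, n = 3). Aif1 at 0.886 ± 0.0985, Itgam at 0.827 ± 0.744, Tmem119 at 0.688 ± 0.196 and Cd68 at 0.616 ± 0.393 were the lowest in CPM per kilobase. Tyrobp lay above Csf1r in every WT library, while the libraries of each later neighbour in this order overlapped. In the libraries labelled KO the leading 4 genes had the same order of means, Cd68 followed at 1.35 ± 0.537 and then Tmem119 at 1.33 ± 0.156 CPM per kilobase, and P2ry12 and Itgam came last at 1.09 ± 0.352 and 0.757 ± 0.188 (SD, n = 5).

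**Figure D1:**
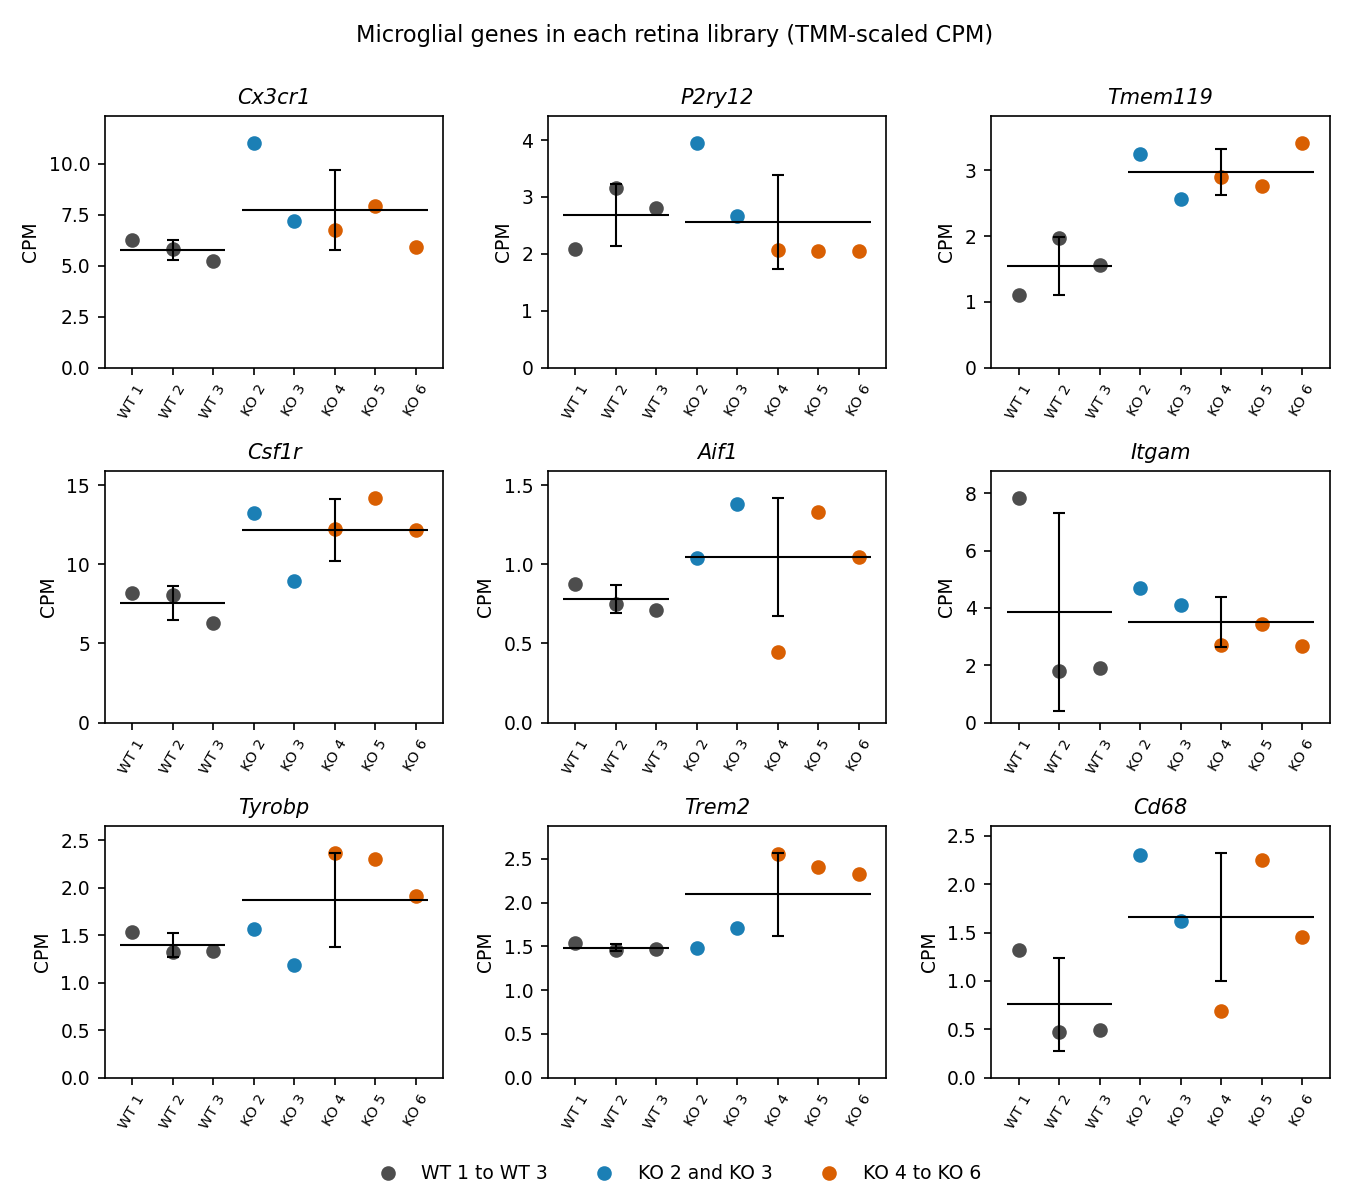
Level of each of the 9 microglial genes in each library, in TMM-scaled CPM on linear axes from 0. Points are libraries, and horizontal lines with bars are the group mean ± SD (n = 3 WT, n = 5 KO). Tmem119 and Csf1r show every KO point above every WT point, and Itgam shows WT 1 at 7.84 CPM above all other libraries.

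Over all 8 libraries, Tmem119 and Csf1r rose in the libraries labelled KO, and the other 7 members did not pass the test. Here and throughout, a call means a Benjamini-Hochberg adjusted p under 0.05, taken over all tested genes in the quasi-likelihood test of edgeR. The 2 calls among 9 members, both higher, stand beside 7.58% of all tested genes called in either direction and 4.74% called higher. With library size alone as scaling, the split over all genes was 566 higher and 787 lower, against 956 and 573 with TMM (trimmed mean of M values) scaling. The members had a median log2 fold change of 0.43, with 7 of 9 above 0. All tested genes had a median of 0.00, with 50.1% above 0. For 2 members every KO library lay above every WT library, as did 10.8% of all tested genes.

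Tmem119, a transmembrane protein used to tell microglia from infiltrating macrophages, was at 1.096, 1.98 and 1.55 CPM in WT 1 to WT 3. It was at 3.26, 2.57, 2.91, 2.76 and 3.42 CPM in KO 2 to KO 6. All 5 KO libraries were above all 3 WT libraries. The log2 fold change was 0.94 (SE 0.23, 1.92-fold), with an edgeR adjusted p of 0.0393 on 20 to 75 counts per library. The groups did not overlap for Csf1r, the receptor for the survival factors Csf1 and Il34. Csf1r was at 8.22, 8.09 and 6.31 CPM in WT, and at 13.3, 8.94, 12.3, 14.2 and 12.2 CPM in KO 2 to KO 6. KO 3 was the lowest KO library and lay close to WT 1. The log2 fold change of Csf1r was 0.69 (SE 0.17, 1.62-fold), with an edgeR adjusted p of 0.0395.

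Both calls were near the threshold. Leaving out WT 1, WT 2, WT 3, KO 4, KO 5 or KO 6 ended each of them, with edgeR adjusted p from 0.0779 to 0.156 for Tmem119 and from 0.0736 to 0.146 for Csf1r. Leaving out KO 2 or KO 3 kept them, and both genes stayed higher in all 31 alternatives. Tmem119 and Csf1r have 59.1% and 54.5% GC, and an offset for GC content ended both calls, with log2 fold changes of 0.71 and 0.52 and edgeR adjusted p of 0.0967 and 0.0562. A share of 0.146 of the 31-base words of Csf1r lies in Hmgxb3 on the opposite strand, and the strand setting of the counting is not given, so the division of reads between them is uncertain.

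**Figure D2:**
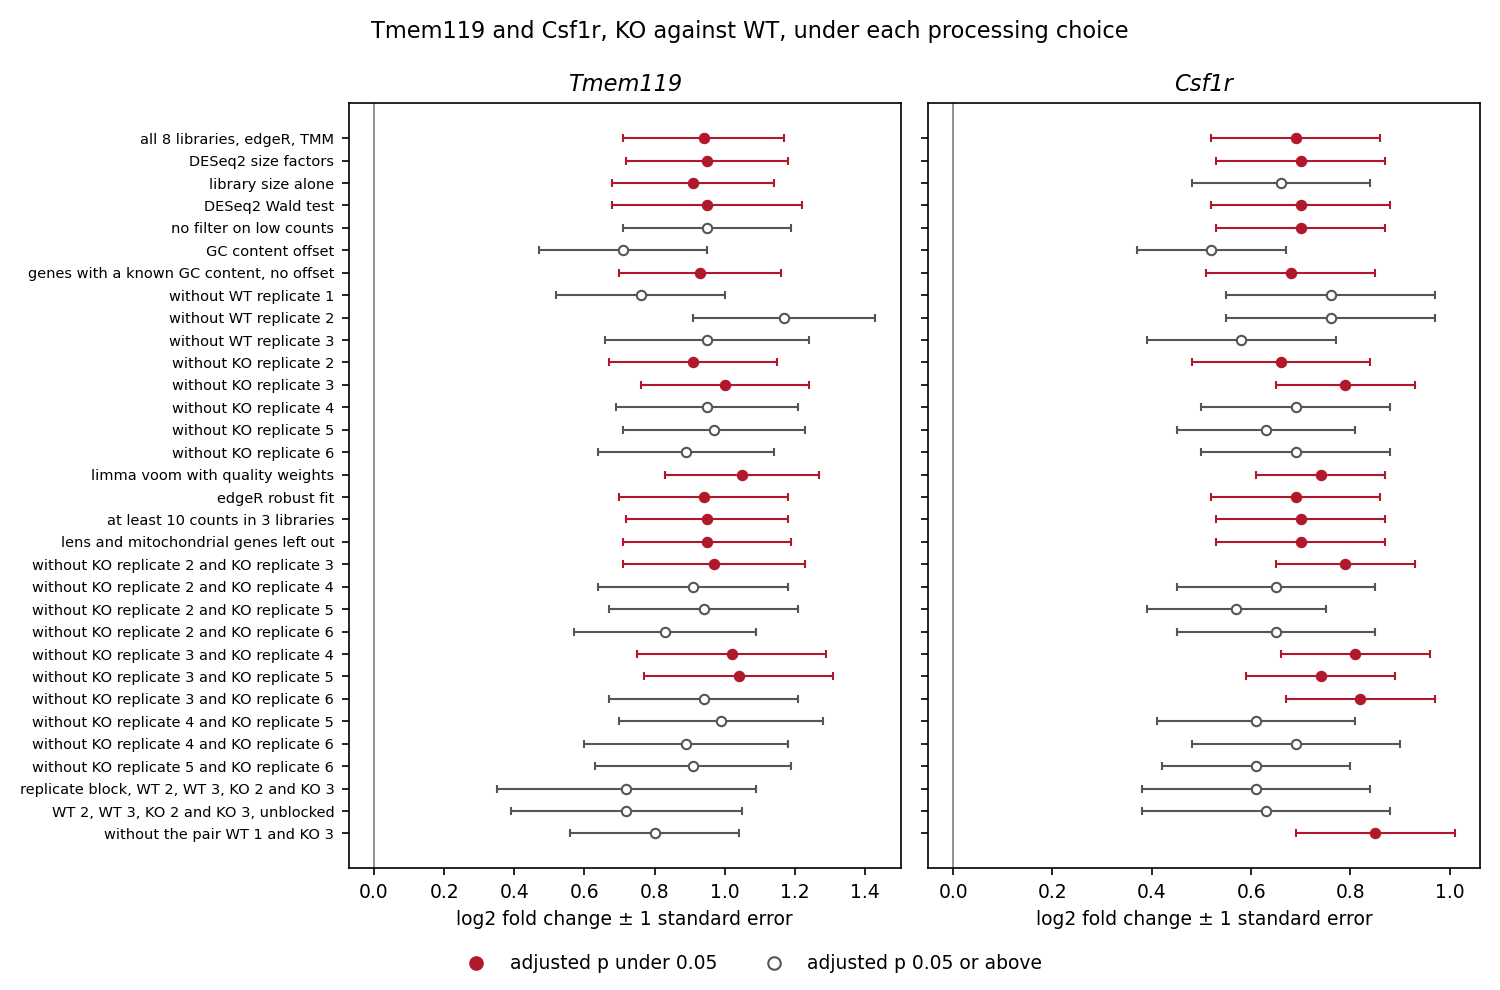
Log2 fold change ± 1 SE of Tmem119 and Csf1r between KO and WT under each way of processing the counts or choosing the libraries. Filled red points passed an adjusted p of 0.05. Every point lies right of 0, from 0.71 to 1.17 for Tmem119 and from 0.52 to 0.85 for Csf1r.

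The other surveying genes did not pass. Cx3cr1, the receptor for neuronal fractalkine, was at 6.25, 5.83 and 5.24 CPM in WT and at 11.03, 7.18, 6.75, 7.92 and 5.92 CPM in KO 2 to KO 6. KO 2 stood highest and KO 6 lay within the WT range, and the log2 fold change was 0.43 (SE 0.20, edgeR adjusted p = 0.202). P2ry12, the purine receptor that guides microglial processes, was at 2.08, 3.15 and 2.80 CPM in WT and at 3.95, 2.66, 2.07, 2.04 and 2.05 CPM in KO 2 to KO 6. KO 2 was the highest library and KO 4 to KO 6 were the lowest 3, just below WT 1. The log2 fold change of P2ry12 was -0.07 (SE 0.27, edgeR adjusted p = 0.900). P2ry12 has the lowest GC content of the 9 at 38.6%, and with the GC offset its log2 fold change was 0.26.

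The phagocytic genes had positive log2 fold changes without passing. Trem2, the lipid-sensing receptor for debris, was at 1.54, 1.46 and 1.47 CPM in WT and at 1.48, 1.71, 2.56, 2.40 and 2.32 CPM in KO 2 to KO 6. Of the KO libraries KO 2 alone lay within the WT range, and the log2 fold change was 0.49 (SE 0.25, edgeR adjusted p = 0.224). Tyrobp, which signals for Trem2 and other receptors, was at 1.54, 1.32 and 1.33 CPM in WT and at 1.56, 1.19, 2.36, 2.30 and 1.91 CPM in KO 2 to KO 6. KO 3 was the lowest of all libraries, and the log2 fold change was 0.42 (SE 0.27, edgeR adjusted p = 0.347). Cd68, a lysosomal membrane protein of phagocytes, was at 1.32, 0.470 and 0.489 CPM in WT and at 2.30, 1.62, 0.690, 2.25 and 1.46 CPM in KO 2 to KO 6. It had the largest fold change of the 9, a log2 value of 1.15 (SE 0.47, edgeR adjusted p = 0.145), but WT 1 lay above KO 4.

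Aif1, the gene for the actin-binding microglial marker Iba1, was at 0.877, 0.752 and 0.711 CPM in WT and at 1.04, 1.38, 0.443, 1.33 and 1.05 CPM in KO 2 to KO 6. KO 4 was the lowest library, on 9 counts, and the log2 fold change was 0.43 (SE 0.37, edgeR adjusted p = 0.485). Itgam, the CD11b subunit of an adhesion and complement receptor, was at 7.84, 1.79 and 1.91 CPM in WT and at 4.69, 4.09, 2.71, 3.42 and 2.69 CPM in KO 2 to KO 6. WT 1 was the highest of all libraries, WT 2 and WT 3 were the lowest, and the 5 KO libraries lay between them. The log2 fold change of Itgam was -0.11 (SE 0.45, edgeR adjusted p = 0.899). A share of 0.672 of its 31-base words also lies in Gm49368, an overlapping gene on the same strand that has no entry in the count table, so reads of the pair are uncertain.

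The sign of Itgam turned when WT 1 was left out. The log2 fold change was then 0.93 (SE 0.29, edgeR adjusted p = 0.153), and that of Cd68 was 1.78 (SE 0.50, edgeR adjusted p = 0.129). WT 1 was also the library with the epithelial transcripts. Its 8 genes, chosen after WT 1 was seen to stand apart, were led by Muc4, a membrane mucin, at 22.0 CPM, Krt6b at 12.4 CPM and the corneal keratin Krt12 at 10.9 CPM. Ltf, which neutrophils and glandular epithelia make, had 31 counts in WT 1 and 0 to 2 in the others, while S100a8, a neutrophil gene, had 3 counts in WT 1 and 0 to 7 in the others. Only 2 of the 8 neutrophil markers were in the table, and summed they gave 1.86 CPM in WT 1, 0.0888 to 0.329 CPM in WT 2 and WT 3, and 0 to 0.228 CPM in the libraries labelled KO. Their part in the levels of Itgam and Cd68 was not tested.

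**Figure D3:**
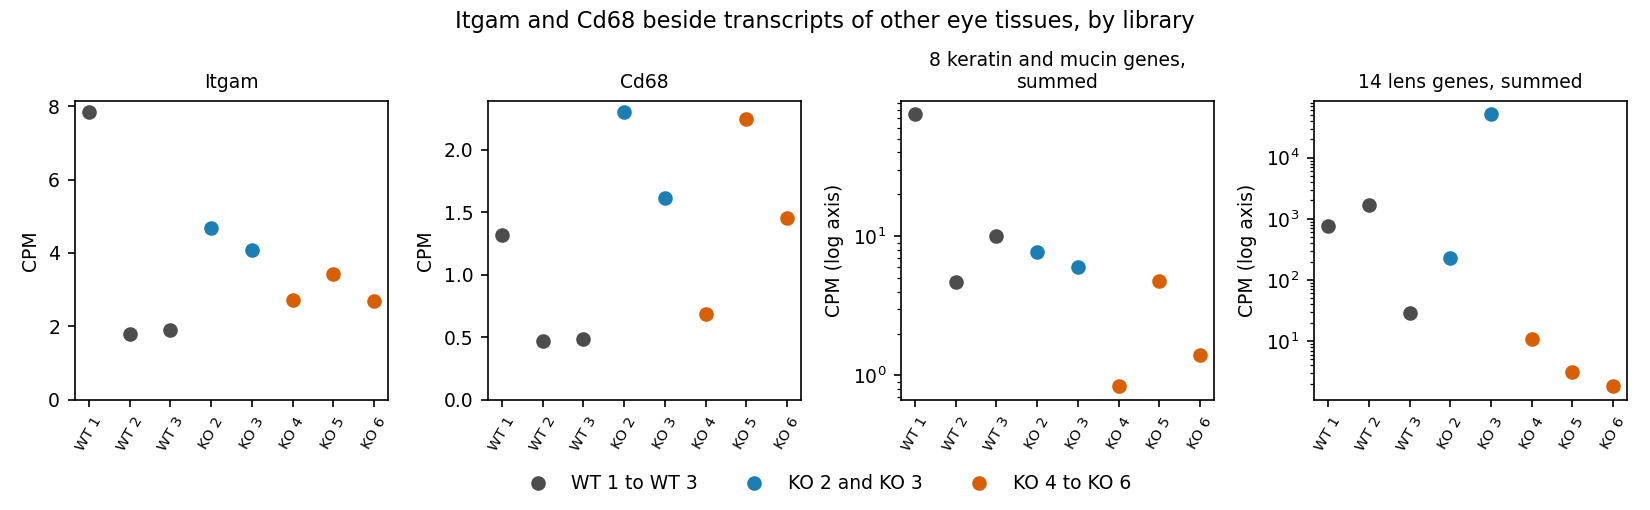
Itgam and Cd68 in CPM on linear axes, beside the summed CPM of 8 keratin, mucin and other epithelial genes and of 14 lens genes on log axes, with a point per library. WT 1 is highest for Itgam and for the epithelial sum (74.7 CPM), and KO 3 is highest for the lens sum (51120 CPM).

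Between KO 2 and KO 3 and the 3 WT libraries, no member was called in edgeR (0 of 9), where 0.891% of tested genes were. At an unadjusted p under 0.05 there were 4 of 9, beside 19.0% of all tested genes, and DESeq2 called none of the 5 members to which it gave an adjusted p. For 5 members, Cx3cr1, Tmem119, Csf1r, Aif1 and Cd68, both KO libraries lay above all WT libraries, as did 17.9% of all tested genes. Their log2 fold changes were 0.66 for Cx3cr1, 0.91 for Tmem119, 0.56 for Csf1r, 0.63 for Aif1 and 1.39 for Cd68, with edgeR adjusted p from 0.171 to 0.399. Tyrobp and Trem2 had log2 fold changes of -0.01 and 0.10. Without KO 3, the library with lens transcripts, Cx3cr1 (0.94, edgeR adjusted p = 0.00864) and Csf1r (0.83, edgeR adjusted p = 0.0164) were called, in a fit where KO 2 alone is assumed to vary like the WT libraries. Without KO 2, in the like fit of KO 3 alone, Cx3cr1 was at 0.32 (edgeR adjusted p = 0.552) and Csf1r at 0.25 (edgeR adjusted p = 0.662).

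Between KO 4 to KO 6 and WT, 3 of 9 members were called, all higher. In this comparison 42.8% of all tested genes were called in either direction and 22.3% were called higher, so the members' share is near that of genes at large. Csf1r rose by 0.79 (SE 0.14, edgeR adjusted p = 0.000567), Tmem119 by 0.97 (SE 0.26, edgeR adjusted p = 0.00847) and Trem2 by 0.72 (SE 0.23, edgeR adjusted p = 0.0254) on the log2 scale. Tyrobp had a log2 fold change of 0.66 (SE 0.25) and an edgeR adjusted p of 0.0502. These 4 genes had all 3 KO libraries above all WT libraries, as did 26.4% of tested genes. P2ry12 had all 3 below, with a log2 fold change of -0.38 (SE 0.23, edgeR adjusted p = 0.215), which turned to 0.14 with the GC offset. With that offset only Csf1r was called (0.54, edgeR adjusted p = 0.00796), and Tmem119 (0.60, edgeR adjusted p = 0.0993) and Trem2 (0.38, edgeR adjusted p = 0.246) were not. Leaving out any of the 6 libraries ended the call of Trem2 (edgeR adjusted p 0.0548 to 0.0776), while Csf1r and Tmem119 kept theirs. Cd68, at 0.98 with all 6, was called without WT 1 (1.59, edgeR adjusted p = 0.0360) and was at 0.53 without KO 5 (edgeR adjusted p = 0.486).

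The sets of KO libraries were also tested against each other. No member was called between KO 4 to KO 6 and KO 2 and KO 3 (0 of 9 in edgeR, 2 at an unadjusted p under 0.05), where 13.9% of tested genes were called and 30.98% had an unadjusted p under 0.05. P2ry12 had a log2 fold change of -0.69 (SE 0.26) and Itgam of -0.58 (SE 0.22), each with an edgeR adjusted p of 0.119. Tyrobp had 0.67 (SE 0.30, edgeR adjusted p = 0.174) and Trem2 0.61 (SE 0.27, edgeR adjusted p = 0.168). The sets did not overlap for these 4 of 9 genes, nor for 47.4% of all tested genes. The ratio of Trem2 to P2ry12 counts within a library, which needs no scaling, was 0.737, 0.463 and 0.524 in WT 1 to WT 3 and 0.374, 0.643, 1.24, 1.18 and 1.13 in KO 2 to KO 6. KO 2 and KO 3 lay on both sides of WT 2 and WT 3, and KO 4 to KO 6 lay above all others. Trem2 and P2ry12 differ in GC content, at 57.5% and 38.6%. With the GC offset the log2 fold changes between KO 4 to KO 6 and WT went from 0.72 to 0.38 for Trem2 and from -0.38 to 0.14 for P2ry12, so the gap between these genes was smaller. The ratio of Tmem119 to P2ry12, both genes of surveying microglia, was 0.526, 0.627 and 0.556 in WT 1 to WT 3 and 0.824, 0.964, 1.41, 1.35 and 1.67 in KO 2 to KO 6. All 5 KO libraries lay above all WT libraries for that ratio, with KO 4 to KO 6 the highest. Tmem119 has a GC content of 59.1%, and with the GC offset the log2 fold changes between KO 4 to KO 6 and WT were 0.60 for Tmem119 and 0.14 for P2ry12, against 0.97 and -0.38 without it. The ratio of Tyrobp to Cx3cr1 was 0.226 to 0.254 among the WT libraries, 0.142 for KO 2, 0.166 for KO 3 and 0.290 to 0.350 for KO 4 to KO 6, so the KO sets lay on either side of WT. Tyrobp and Cx3cr1 have GC contents of 55.5% and 50.3%, and between KO 4 to KO 6 and WT their log2 fold changes went from 0.66 and 0.26 to 0.38 and 0.19 with the GC offset.

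**Figure D4:**
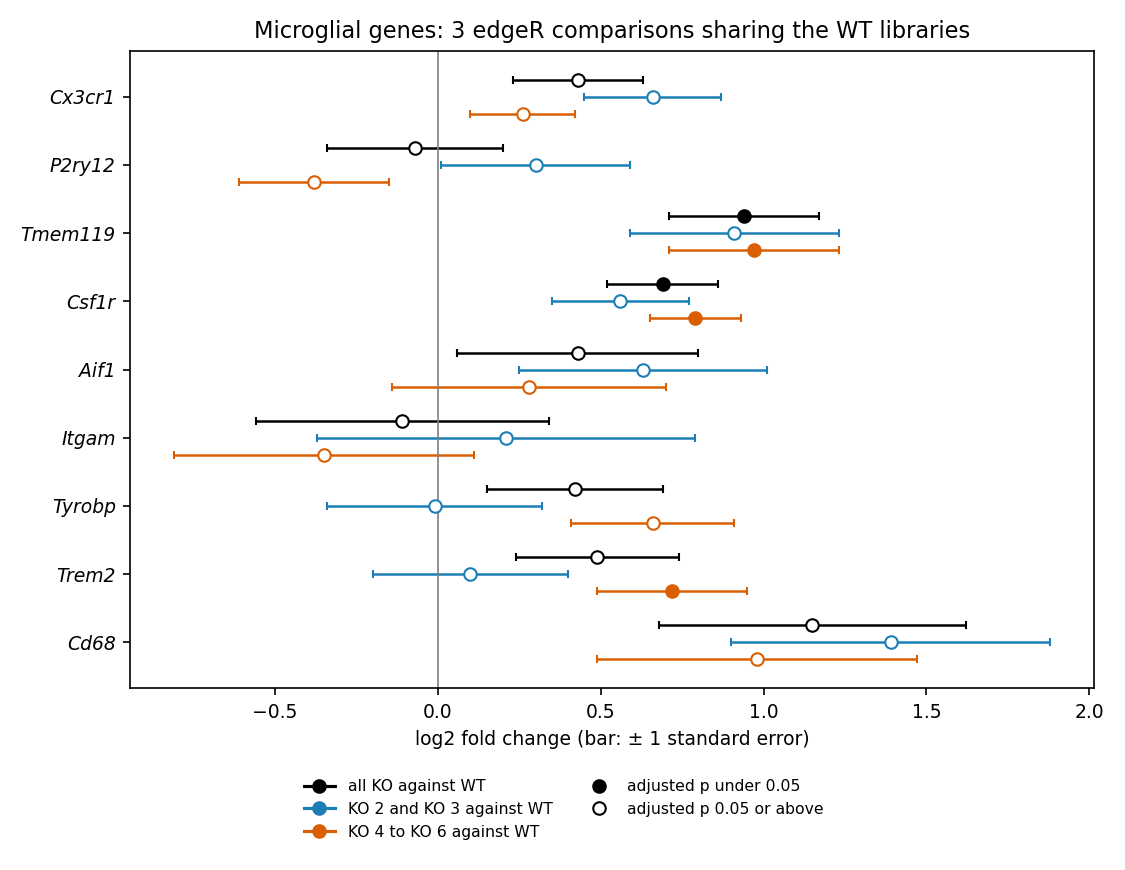
Log2 fold change ± 1 SE of each member in the comparison of all 5 KO libraries, of KO 2 and KO 3, and of KO 4 to KO 6 with the same 3 WT libraries. Filled points passed an adjusted p of 0.05. Filled points are Tmem119 and Csf1r in 2 comparisons and Trem2 for KO 4 to KO 6, and the 3 comparisons share their controls.

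Ligands and signalling partners of the members were examined as a list of 12 genes, of which 11 were tested and 1 was called, higher, beside 4.74% of all tested genes, at a list median of 0.46 on the log2 scale. The called gene was Csf1, the cytokine ligand of Csf1r. Csf1 was at 5.15, 4.66 and 5.11 CPM in WT and at 8.55, 7.85, 7.88, 8.89 and 7.52 CPM in KO 2 to KO 6. All KO libraries were above all WT libraries, and the log2 fold change was 0.71 (SE 0.13, edgeR adjusted p = 0.0169). With the GC offset it was 0.55 (edgeR adjusted p = 0.0325), and the call was lost without any of the 3 WT libraries (edgeR adjusted p 0.0742 to 0.0985). Il34, the other ligand of Csf1r, had a log2 fold change of -0.24 (edgeR adjusted p = 0.279). Cx3cl1, the fractalkine that binds Cx3cr1, was at 67.1 ± 4.69 CPM in WT and 85.5 ± 9.67 CPM in the libraries labelled KO, with a log2 fold change of 0.35 (edgeR adjusted p = 0.0678). Apoe, a lipid carrier bound by Trem2 and made in retina mainly by Muller glia, had 0.46 (edgeR adjusted p = 0.0738). Itgb2, which pairs with Itgam, had 0.53 (edgeR adjusted p = 0.419) and did not share the high value of Itgam in WT 1, at 1.32 CPM there against 0.470 to 1.94 CPM elsewhere. Irf8, a transcription factor of microglia, had 0.78 (edgeR adjusted p = 0.0797). With the GC offset the list median over all 8 libraries was 0.21. Between KO 2 and KO 3 and WT, 0 of 11 were called in edgeR, beside 0.891% of all tested genes. There 1 had an unadjusted p under 0.05, DESeq2 called 1, and the list median was 0.29. Cx3cl1 was at 0.21, Apoe at 0.29 and Irf8 at 0.53 there (edgeR adjusted p from 0.340 to 0.413). Between KO 4 to KO 6 and WT, 5 of 11 were called higher and 0 lower, beside 22.3% higher among all tested genes, at a list median of 0.45. These included Cx3cl1 (0.45, edgeR adjusted p = 0.000278), Apoe (0.58, edgeR adjusted p = 9.33e-05) and Irf8 (0.94, edgeR adjusted p = 0.0101). With the GC offset 4 were called there, at a median of 0.18.

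Of 20 tested homeostatic microglia genes outside the members, 1 was called, higher, beside 4.74% of all tested genes, and the list median was 0.25 on the log2 scale. The called gene was Selplg, a selectin ligand enriched in microglia. Selplg was at 1.86, 1.79 and 1.47 CPM in WT and at 3.99, 2.09, 4.14, 4.19 and 4.65 CPM in KO 2 to KO 6, and KO 3 was nearest to WT. Its log2 fold change was 1.16 (SE 0.27, edgeR adjusted p = 0.0329), and it lost the call without any of WT 1, WT 2, WT 3, KO 4, KO 5 or KO 6 (edgeR adjusted p 0.0681 to 0.132). Siglech, a microglial lectin, had 0.11 (edgeR adjusted p = 0.892) and Gpr34, a lipid receptor, had -0.65 (edgeR adjusted p = 0.251). Sall1, a microglial transcription factor also expressed in other tissues of the eye, was at 0.752 to 1.04 CPM in WT, at 1.95 to 2.61 CPM in KO 2, KO 4, KO 5 and KO 6, and at 9.75 CPM in KO 3, the library with lens transcripts. All 5 KO libraries lay above all WT libraries, and the log2 fold change was 2.09 (edgeR adjusted p = 0.0503). Between KO 4 to KO 6 and WT, a comparison without KO 3, Sall1 was called at 1.51 (edgeR adjusted p = 0.000594). In that comparison 7 of the 20 genes were called higher and 2 lower, at a list median of 0.31, where 22.3% of all tested genes were called higher and 20.5% lower. Selplg was among the higher ones (1.36, edgeR adjusted p = 0.000198) and Gpr34 among the lower (-0.95, edgeR adjusted p = 0.0435). DESeq2 called 8 of the 20, and 5 were called with the GC offset, at a median of 0.18. Between KO 2 and KO 3 and WT, 0 of the 20 were called in edgeR, beside 0.891% of all tested genes. There 7 had an unadjusted p under 0.05, DESeq2 called 1, and the list median was 0.25.

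Disease-associated microglia genes, the set that rises around degenerating neurons, had 4 of 19 tested genes called higher and 1 lower, where 4.74% of all tested genes were called higher and 7.58% in either direction, and the list median was 0.07 on the log2 scale. The called genes were Ctsz (0.73, edgeR adjusted p = 0.0102), Ctsb (0.52, edgeR adjusted p = 0.0391), Cd63 (0.40, edgeR adjusted p = 0.0229) and Axl (0.63, edgeR adjusted p = 0.0295), which rose, and Spp1 (-0.52, edgeR adjusted p = 0.0262), which fell. Ctsz and Ctsb encode lysosomal proteases and Cd63 a late endosomal tetraspanin, and these 3 are expressed by many cell types. Axl is a receptor for apoptotic cells, and Spp1 encodes osteopontin, which retinal neurons also make. When 1 or 2 libraries were left out, in 18 ways, Ctsz kept its call in 14, Cd63 in 9, Spp1 in 8, and Ctsb and Axl in 6 each. Between KO 2 and KO 3 and WT, 0 of 19 were called in edgeR, beside 0.891% of all tested genes. There 8 had an unadjusted p under 0.05 and DESeq2 called 2. The list median was 0.19 there, with 12 of 19 above 0. Between KO 4 to KO 6 and WT, 6 of 18 tested genes of this list were called higher and 5 lower, beside 22.3% and 20.5% of all tested genes, with a list median of -0.20. Among the lower ones were Igf1, a growth factor (-0.86, edgeR adjusted p = 7.29e-06), and Lpl, a lipase (-0.63, edgeR adjusted p = 0.00018), which were at -0.08 and 0.16 in KO 2 and KO 3. In WT they were at 45.2 and 31.2 CPM, and the cells that made this RNA were not determined. Cst7 and Itgax, genes more restricted to activated microglia and named after their values were seen, were scarce. Cst7 had 1 to 5 counts and Itgax 0 to 9 counts in a library, so neither passed the filter on low counts and neither was tested. Clec7a was at 0.745 ± 0.0825 CPM in WT and 0.855 ± 0.425 CPM in the libraries labelled KO (edgeR adjusted p = 0.790). Lyz2, a lysozyme of myeloid cells, was not scarce, at 43 to 98 counts in a library. It was at 4.20 ± 0.254 CPM in WT and 2.72 ± 0.483 CPM in KO (log2 fold change -0.63, edgeR adjusted p = 0.0694). Lyz2 was called lower between KO 4 to KO 6 and WT (-0.72, edgeR adjusted p = 0.0146). In KO 2 and KO 3 it was at -0.48 (edgeR adjusted p = 0.262).

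The 3 genes of complement C1q, made in retina by microglia, were not called (0 of 3 in edgeR, 2 at an unadjusted p under 0.05, 1 by DESeq2, 3 by voom), with a list median of 0.50. C1qb was at 4.72, 5.03 and 5.28 CPM in WT and at 7.47, 6.18, 8.13, 9.86 and 6.74 CPM in KO 2 to KO 6. The groups did not overlap, and its log2 fold change was 0.61 (SE 0.17, edgeR adjusted p = 0.0577). C1qc had 0.50 (edgeR adjusted p = 0.151) and C1qa 0.30 (edgeR adjusted p = 0.222). Between KO 4 to KO 6 and WT all 3 were called higher, C1qb at 0.72 (edgeR adjusted p = 0.00323), C1qc at 0.54 (edgeR adjusted p = 0.0442) and C1qa at 0.37 (edgeR adjusted p = 0.0365), in the comparison that called 42.8% of genes. With the GC offset 0 of the 3 were called in edgeR, at a list median of 0.20 against 0.54, and DESeq2 called 1. Between KO 2 and KO 3 and WT none was called (0 of 3 in edgeR, 1 at an unadjusted p under 0.05, 0 by DESeq2).

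Markers of other cells that express some of the members were also present. Of 11 monocyte and border macrophage markers, 5 were tested and none was called (0 in edgeR, 3 at an unadjusted p under 0.05, 0 by DESeq2, 4 by voom), with a list median of -0.97. Their sum was 18.8 to 24.2 CPM in WT and 10.4 to 18.8 CPM in the libraries labelled KO, most of it from Lyve1, which lymphatic endothelium also expresses and which was at 15.6 ± 2.32 CPM in WT. Mrc1 was at 1.99 ± 0.164 CPM in WT and 1.01 ± 0.524 CPM in the libraries labelled KO (log2 fold change -0.97, edgeR adjusted p = 0.133), and Cd163 had -1.12 (edgeR adjusted p = 0.101). Between KO 4 to KO 6 and WT, 3 of 4 tested markers were called lower, where 20.5% of all tested genes were, among them Mrc1 at -1.63 (edgeR adjusted p = 0.00114) and Lyve1 at -0.63 (edgeR adjusted p = 0.00388). The list median was -1.38 there and -0.31 between KO 2 and KO 3 and WT. In KO 2 and KO 3, 0 of 4 were called in edgeR (0 at an unadjusted p under 0.05, 0 by DESeq2). Mrc1 was at -0.35 (edgeR adjusted p = 0.546) and Lyve1 at -0.28 (edgeR adjusted p = 0.380) in KO 2 and KO 3. The monocyte gene Ly6c2 had 0 to 11 counts in a library, and Plac8, another monocyte marker, had 25 counts in WT 1 and 0 to 8 elsewhere. Of the lymphocyte markers 2 were tested and of the erythrocyte markers 4, and none was called in edgeR (0 and 1 at an unadjusted p under 0.05, 0 and 1 by DESeq2, 0 and 3 by voom). Of the 4 erythrocyte markers 3 were called lower between KO 4 to KO 6 and WT, at a list median of -0.99, and 0 of the 2 lymphocyte markers were called in edgeR (0 at an unadjusted p under 0.05, 0 by DESeq2). Between KO 2 and KO 3 and WT, the erythrocyte median was -0.03. None of the 4 erythrocyte or 2 lymphocyte markers was called there in edgeR (0 and 0 at an unadjusted p under 0.05, 0 and 0 by DESeq2). The part of these cells in the levels of the members was not tested.

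**Figure D5:**
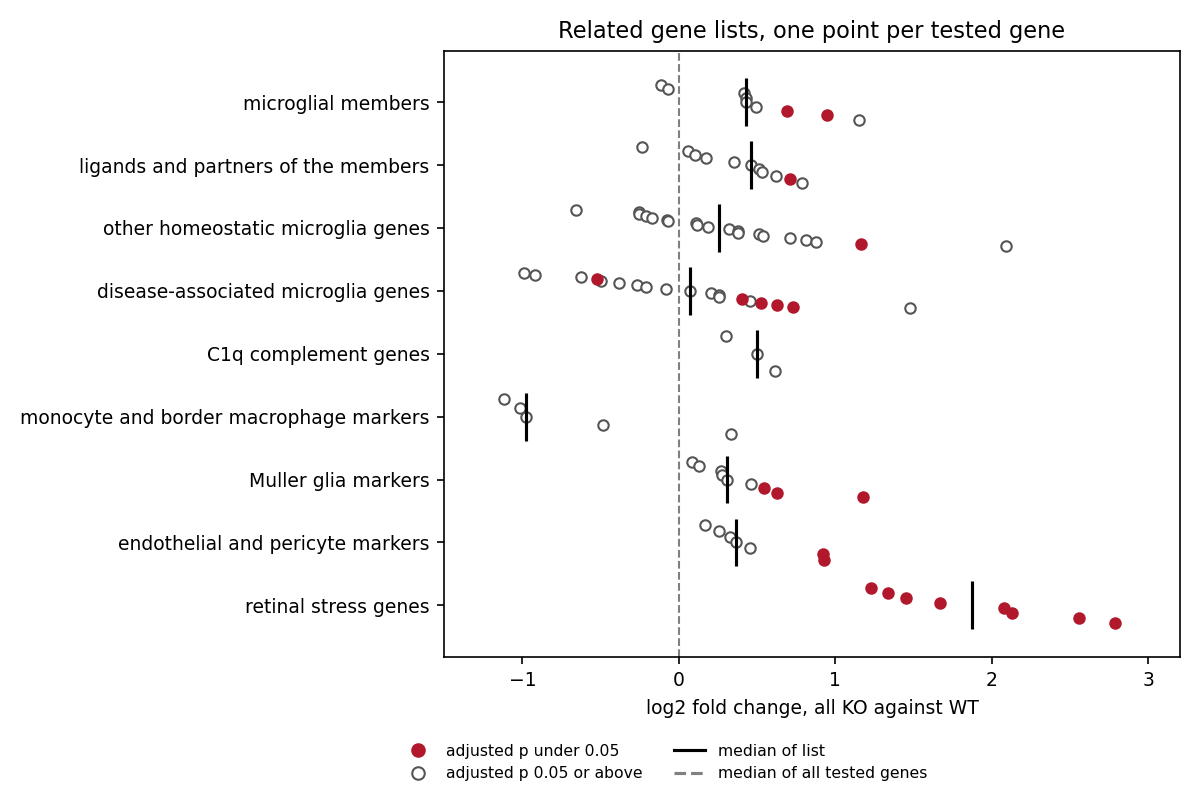
Log2 fold change of each tested gene between all 5 KO libraries and WT, by gene list. Filled red points passed an adjusted p of 0.05, black bars are list medians, and the dashed line is the median of all tested genes. All 8 retinal stress genes are filled, as are 2 of 9 microglial members and 1 of 20 other homeostatic genes. The lists were chosen with earlier results of these data known, so the counts are descriptions.

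Lists for the neighbouring retinal cells gave the setting of these values. All 8 retinal stress genes rose, with a median log2 fold change of 1.87, and Gfap, the intermediate filament of reactive glia, went from 20.1 ± 0.839 to 63.9 ± 11.2 CPM (1.67, edgeR adjusted p = 0.000382). The stress list, like the others, was chosen with earlier results of these data known, so its count is a description and not a test. Of 9 Muller glia genes, 3 rose and 0 fell, with a median of 0.31, and these were Sox9 (0.62), Kcnj10 (0.54) and Vim (1.18), which was at 320 CPM in KO 3. Of 7 endothelial and pericyte genes, 2 rose and 0 fell, Pdgfrb (0.93) and Kdr (0.92). Of 10 rod and cone genes, 1 rose and 2 fell. None of 7 pigment epithelium genes or 14 lens genes was called in edgeR (2 and 0 at an unadjusted p under 0.05, 2 and 0 by DESeq2, 5 and 1 by voom). Over all 8 libraries 7.58% of tested genes were called. The lens genes had a median of 3.55 over all 8 libraries. Between KO 2 and KO 3 and WT their median was 4.88, with 13 of 14 above 0. None was called there in edgeR (12 at an unadjusted p under 0.05, 1 by DESeq2). All 13 tested lens genes were called lower between KO 4 to KO 6 and WT, where 42.8% of genes were called, at a median of -7.20, and 3 pigment epithelium genes were called higher and 2 lower. In the same comparison 8 of 8 stress genes, 6 of 9 Muller glia genes and 4 of 7 endothelial and pericyte genes were called higher and 0 lower, and of the rod and cone genes 3 were called higher and 5 lower. Between KO 2 and KO 3 and WT, 0.891% of all tested genes were called. There 4 of 8 stress genes and 2 of 7 endothelial and pericyte genes were called higher, and 2 of 10 rod and cone genes lower. None of 9 Muller glia genes or 7 pigment epithelium genes was called there in edgeR (5 and 2 at an unadjusted p under 0.05, 4 and 0 by DESeq2).

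The genes whose levels over the 8 libraries were most like the mean of the members were ranked among 14692 genes. The likeness was Pearson's r of log2 CPM with the mean of the members' standardised log2 CPM. The leading genes were Sox9 (r = 0.984), Sardh (0.974), Gtf2i (0.973), Onecut3 (0.966), Cdc25a (0.963) and Irgm1 (0.962). The members' mean was lowest in WT 3 at -0.89 and highest in KO 2 at 0.77, in standard deviations. These r values are descriptions over 8 libraries that fall into the sets described above. Sox9 is also a gene of the Muller glia list.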

How the data were processed

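Each library was made from total retinal RNA by a commercial provider, per the labels' protocols. The authors deposited estimated counts per gene, rounded to whole numbers, for 8 libraries. Trim Galore, Salmon 1.10.2, DESeq2 and the build GRCm38 are named in the submitters' processing notes. The annotation release and the strand setting are not given in the sources used here. Every gene in the table had at least 16 counts in all.

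Counts were scaled by TMM in edgeR 4.0.16 (R 4.3.3), filtered with filterByExpr and tested by quasi-likelihood (glmQLFit, glmQLFTest) with p-values adjusted by Benjamini-Hochberg over all tested genes. Standard errors (SE) come from log2 fold changes divided by the root of F. Levels are TMM-scaled CPM. Group values are mean ± SD. The edgeR steps were tested on simulated data. GENCODE M21 (GRCm38), which held 22121 of the genes, gave transcript length, GC content and shared 31-base words. Floors cover counting error only. Each library was counted as a replicate, since no pair of a group came closer than a chi-square per degree of freedom of 5.38.

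The members and lists were chosen with earlier results of these data known. Named by rule were the members, their direct ligands and partners, the C1q genes, genes of a list called in edgeR over all libraries or in KO 2 and KO 3 (up to 6 a list), and the 6 most alike genes. Spi1, Irf8, Siglech, Gpr34, Sall1, Cst7, Itgax, Clec7a, Lyz2, Mrc1, Cd163, Lyve1, Ly6c2, Plac8, Igf1, Lpl, Ltf, S100a8 and the epithelial genes were named after their values were seen. A gene of the lists is not reported here. Alternatives were scaling by library size alone or by the size factors of DESeq2, the DESeq2 1.42.0 test, voom in limma 3.58.1 with quality weights, a robust fit, other filters, lens and mitochondrial genes left out, a GC offset, fits without 1 or 2 libraries, and a replicate block.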

Additional observations from a re-analysis of the deposited data

Results flagged for a closer look

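In 5 of 38 genes examined, 1 library labelled KO lay far from the other 4, with a gap over 0.71 of the group's whole range. Chance gives such a gap in about 5% of groups of independent normal values. The 38 genes are not independent, many were named for being called, and 4 of the 5 gaps lie in KO 3. Their number therefore cannot be set against that rate. Vim, an intermediate filament of Muller glia and lens, was at 320.2 CPM in KO 3, above the others, with a gap of 0.838 of the range. Ctsb was at 359.6 CPM in KO 3, below the others, with a gap of 0.756. Selplg was at 2.09 CPM in KO 3 and C1qa at 5.85 CPM in KO 3, both below the others, each with a gap of 0.744. Spp1 was at 14.5 CPM in KO 2, above the others, with a gap of 0.718. None of the 9 microglial members had such a gap. The lens genes of KO 3 summed to 51120 CPM, and their part in its 4 gaps was not tested.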

How the results depend on the processing

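Over 31 alternatives to the comparison of all libraries, Cx3cr1, Tmem119, Csf1r, Aif1, Tyrobp, Trem2 and Cd68 kept a positive log2 fold change. Tmem119 was called in 13 of them and Csf1r in 15. The count of 2 members called became 0 with the GC offset, 1 with library size alone, 4 with voom, 1 with no filter, 1 without WT 1 and KO 3 together (chosen after seeing the data), and 0 to 3 when 1 or 2 libraries were left out. The 1529 genes called became 3127 with DESeq2, 8248 with voom, and 118 to 8416 with 1 or 2 libraries left out. The 23 genes called in the related lists became 37 with DESeq2, 67 with voom, and 6 to 77 with libraries left out. For KO 2 and KO 3, the 180 genes called became 954 with DESeq2, 88 with library size alone, and 11 to 3614 with a library left out, and the members called were 0 to 2. For KO 4 to KO 6, 1 member was called with the GC offset.

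P2ry12 and Itgam changed sign. P2ry12 was at 0.26 with the GC offset and -0.38 to 0.11 with libraries left out, and for KO 4 to KO 6 at 0.14 with the GC offset. Itgam was at 0.86 without WT 1 and KO 3 and at -0.45 to 0.93 with libraries left out. With a library left out for KO 2 and KO 3, P2ry12 ranged from -0.01 to 0.56, Itgam from -0.14 to 1.25 and Tyrobp from -0.23 to 0.18. For KO 4 to KO 6, Aif1 ranged from -0.05 to 0.61 and Itgam from -0.69 to 0.66. Beyond the use of fewer libraries, the cause was not tested.

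Replicate numbers 2 and 3 occur in both groups, and deviations of same-numbered libraries had correlations of -0.00442 and -0.24 over genes. Since the KO libraries fall into unlike sets, these correlations cannot decide whether same-numbered libraries were paired. The replicate block of WT 2, WT 3, KO 2 and KO 3 called 52 genes, 0 members and 4 list genes, with P2ry12 at 0.13 and Itgam at 1.24. Unblocked, these 4 libraries gave 14 genes, 0 members and 1 list gene, with P2ry12 at 0.16 and Itgam at 1.25.

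Counts of 9 to 306 for a member in a library limit the precision. Over all 8 libraries the standard error of the log2 fold change was 0.47 for Cd68, 0.45 for Itgam, 0.37 for Aif1 and 0.17 to 0.27 for the other 6 members.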
